A study of Mus musculus with 2 samples.

Results

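The cells described here were alveolar type 2 (AT2) cells of injured mouse lung with a high level of *Lcn2*, a gene used to mark activated AT2 cells, and with nuclear RNA. They were 267 of 45824 kept cells, 26 of 30187 from *Pclaf* WT lungs and 241 of 15637 from *Pclaf* KO lungs. Kept barcodes had 201 to 4999 detected genes and under 20% mitochondrial UMIs (unique molecular identifiers, each standing for 1 captured transcript). A cell belonged to the group when *Sftpc* made up at least 5% of its UMIs, *Lcn2* at least 50 and *Malat1* at least 30 of every 10000 UMIs, and *Ptprc* and *Pecam1* had 0 UMIs. The comparison cells met the same limits for *Sftpc*, *Malat1*, *Ptprc* and *Pecam1* but had under 50 *Lcn2* UMIs per 10000. These *Lcn2*-low AT2 cells numbered 399 in WT and 5343 in KO. The cells were selected on *Lcn2*, *Sftpc*, *Malat1*, *Ptprc* and *Pecam1*, so the levels of these genes are given as a description and support nothing.

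The study asked how loss of *Pclaf*, which encodes a PCNA-binding factor that acts with the DREAM cell cycle complex, bears on regeneration of alveolar cells. Each genotype had 1 single-cell library (10x Genomics 3' chemistry) of lung cells sorted as Cd31-/Cd45-/Epcam+. The WT and KO mice were 8 to 10 weeks old and were sampled 1 week after 1.35 U/kg of bleomycin, a drug that injures the alveolar epithelium. This is the dose of the labels, and the study's text gives others. No uninjured lung was in the series. The study describes the KO mice as an established germline knockout of *Pclaf*, although the KO library held *Pclaf* UMIs, as described below. Any difference between genotypes may lie in the AT2 cells, in other cells or in the response to injury. How many mice entered a library was not given in the sources used here. With 1 library per genotype there was no test between genotypes, and cells are not replicates. Intervals below are exact 95% intervals (Poisson for UMI sums and ratios, binomial for shares) and cover counting error only.

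AT2 cells make, store and recycle surfactant, and they can proliferate and give rise to the flat AT1 cells that carry gas exchange. After injury a fraction of AT2 cells takes on an inflammatory, activated state. LCN2 (lipocalin 2) binds the iron-carrying siderophores of bacteria and is a secreted acute phase protein, as is LRG1, a leucine-rich glycoprotein linked to TGF-beta signaling in blood vessels. NF-kB, C/EBP and STAT3 factors are known to drive acute phase genes. *Malat1* is a long noncoding RNA that stays in the nucleus, so a droplet with little *Malat1* may hold cytoplasm without a nucleus.

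The libraries went against their labels in several ways. Depth also differed, with 98171818 UMIs over 30669 barcodes for WT and 111267567 over 17172 for KO. Although the sort was for epithelial cells, 39.6% of kept WT cells had a UMI of *Ptprc*, the pan-leukocyte gene for CD45, and 41.5% had one of *Pecam1*, the endothelial gene for CD31. In KO the shares were 3.30% and 4.94%. *Sftpc*-high cells made up 2.63% (WT) and 45.9% (KO) of kept cells. As shares of all kept cells, the *Lcn2*-high cells (0.0861% in WT and 1.54% in KO) differ with this makeup of the libraries, and shares below are of AT2 cells only. The methods name male mice, yet both libraries held *Xist*-positive and Y-positive cells, as described below. The 2 libraries shared 163 barcodes, 138 of them among kept cells and 0 among the AT2 cells.

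*Pclaf* (chr9:65890237-65903266, plus strand), the target of the knockout, was at 39.3 CPM over all kept WT cells and 5.19 CPM over all kept KO cells. In cycling cells, taken as those with at least 3 UMIs of *Top2a* and *Mki67* together, it was at 459 CPM in WT (658 cells) and 140 CPM in KO (219 cells). *Pclaf* UMIs were thus present in the library labelled KO, at a lower level over all kept and all cycling cells, whose makeup differed between the libraries. In cycling *Lcn2*-low AT2 cells the level was 167 CPM in WT (61.4 to 364, 6 cells) and 136 CPM in KO (113 to 161, 84 cells), and no difference was detectable. Over all *Lcn2*-low AT2 cells the KO level (4.17 CPM) was below that of WT (9.73 CPM), with a log2 ratio of -1.22 (-1.88 to -0.50) that exceeds counting error. The WT level rests on 21 UMIs in 12 cells, with up to 5 in 1 cell, and the interval does not cover such uneven cells. The part of free RNA in this ratio was not tested. The *Lcn2*-high cells held 0 *Pclaf* UMIs in WT (a limit of 15.8 CPM from 3 counts) and 13 UMIs, spread over 6 cells, in KO (5.2 CPM, 2.77 to 8.89). At this depth a difference in *Pclaf* between WT and KO *Lcn2*-high cells was not detectable. Cycling cells were 0 of 26 in WT, which allows up to 13.2% by the exact interval, and 6 of 241 in KO (2.49%, 0.919 to 5.34), beside 1.5% and 1.57% of *Lcn2*-low cells. Few of these cells were in division by this measure, and no difference from *Lcn2*-low cells was detectable.

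*Lcn2* (chr2:32384633-32388252, minus strand, GRCm38), the gene that chose the cells, had 7414 CPM (UMIs per 1000000 UMIs summed over the cells of a group) in WT *Lcn2*-high cells and 1233 CPM in WT *Lcn2*-low cells. In KO the levels were 7612 and 1109 CPM. Promoter windows (250 bases before to 50 after the gene start, 5' to 3', RefSeq, GRCm38.p6) are shown for *Lcn2* and for 3 genes that were higher along with it and are described below. They are *Lrg1* (an acute phase glycoprotein), *Chil1* (a chitinase-like secreted protein) and *C3* (complement component 3). Capitals mark letters of an NF-kB motif (GGGANNNNCC) or a C/EBP motif (TTGCNNAA), searched on both strands.
Lcn2: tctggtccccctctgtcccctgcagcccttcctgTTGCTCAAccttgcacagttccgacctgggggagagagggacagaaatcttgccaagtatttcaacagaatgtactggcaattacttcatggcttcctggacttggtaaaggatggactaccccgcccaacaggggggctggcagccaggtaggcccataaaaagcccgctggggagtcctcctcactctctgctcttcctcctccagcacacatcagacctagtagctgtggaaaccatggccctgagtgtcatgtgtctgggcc
Lrg1: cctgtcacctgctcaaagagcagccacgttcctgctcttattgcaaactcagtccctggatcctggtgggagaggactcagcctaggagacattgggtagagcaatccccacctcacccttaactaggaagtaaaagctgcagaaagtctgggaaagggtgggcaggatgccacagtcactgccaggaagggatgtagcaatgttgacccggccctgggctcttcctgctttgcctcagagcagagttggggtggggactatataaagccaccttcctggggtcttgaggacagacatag
Chil1: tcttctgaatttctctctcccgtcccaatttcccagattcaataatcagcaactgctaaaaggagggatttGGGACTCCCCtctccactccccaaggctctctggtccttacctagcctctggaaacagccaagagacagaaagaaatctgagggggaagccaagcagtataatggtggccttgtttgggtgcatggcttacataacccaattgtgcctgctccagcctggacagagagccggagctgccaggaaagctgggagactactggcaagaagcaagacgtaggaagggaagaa
C3: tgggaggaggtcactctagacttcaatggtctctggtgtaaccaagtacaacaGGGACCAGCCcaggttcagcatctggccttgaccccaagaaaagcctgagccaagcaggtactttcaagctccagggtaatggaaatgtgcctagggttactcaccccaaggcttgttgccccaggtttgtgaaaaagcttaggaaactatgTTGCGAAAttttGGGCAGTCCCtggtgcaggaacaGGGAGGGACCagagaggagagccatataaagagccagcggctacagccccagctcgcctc
The windows lie at chr2:32387690-32387989 (*Lcn2*, minus strand), chr17:56121897-56122196 (*Lrg1*, minus strand), chr1:134181906-134182205 (*Chil1*, plus strand) and chr17:57228087-57228386 (*C3*, minus strand). The *Lcn2* window has 1 C/EBP match, TTGCTCAA, that begins 216 bases before the RefSeq start. This window lies inside the gene span given above. The RefSeq start thus differs from the upper end of that span, where a minus strand gene begins. The *Chil1* window has 1 NF-kB match at -179. The *C3* window has 3 NF-kB matches, at -197, -33 and -10, and 1 C/EBP match at -45, and the *Lrg1* window has neither motif. Of the 12 highest genes named below, 9 had a window in the table. An NF-kB match was found in 3 of the 9, a C/EBP match in 4 and a STAT match (TTCNNNGAA) in 1. Among 32817 mouse promoter windows of the same length, 20.7% hold the NF-kB motif, 10.8% the C/EBP motif and 8.29% the STAT motif. A match is a string of letters and not evidence of binding.

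Per cell, *Lcn2* in the *Lcn2*-high group ranged from 51.9 to 134 per 10000 UMIs in WT, with a median of 70.3, and from 50 to 276 in KO, with a median of 62.9. The median cell held 48.5 *Lcn2* UMIs in WT and 68 in KO. The limit of 50 cut through a continuous distribution with no gap. In WT the lowest cell inside had 51.9 and the highest cell outside 49.9, with 9 cells between 50 and 60 and 17 between 40 and 50. In KO these edge values were 50 and 49.9, with 102 and 127 cells. Over all AT2 cells that met the other limits, the median was 8.26 per 10000 in WT and 7.0 in KO, and 12.9% and 11.5% of cells had no *Lcn2* UMI.

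**Figure D1:**
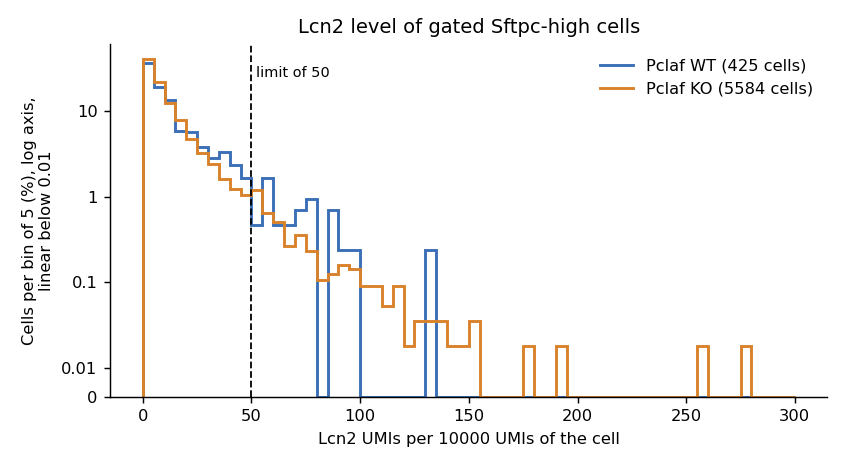
*Lcn2* UMIs per 10000 UMIs of the cell (x axis) in AT2 cells that met the *Sftpc*, *Malat1*, *Ptprc* and *Pecam1* limits, as the percentage of cells in each bin of 5 (y axis, log scale, linear below 0.01) for WT (425 cells) and KO (5584 cells). The dashed line is the limit of 50; the levels run on across it, and 1 WT cell and 33 KO cells reached 100 or more.

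The share of AT2 cells with high *Lcn2* was 6.12% in WT (26 of 425, 95% interval 4.03 to 8.84) and 4.32% in KO (241 of 5584, 3.80 to 4.88). The intervals overlap, and no difference between the genotypes can be read from 1 library each.

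The label of the cells was checked against markers. Apart from *Sftpc*, which chose the cells, all 9 listed AT2 markers were detected in the *Lcn2*-high cells of both libraries. Their summed level was 50438 CPM in WT and 54697 CPM in KO, above the 42400 and 44145 CPM of *Lcn2*-low cells. *Slc34a2*, the phosphate transporter of AT2 cells, was at 4436 CPM in WT *Lcn2*-high and 4723 CPM in WT *Lcn2*-low cells, and at 4581 and 4313 CPM in KO. Its log2 ratio of high over low was -0.09 in WT (-0.19 to 0.01) and 0.09 in KO (0.06 to 0.11), with opposite signs in the 2 libraries.

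Neutrophils also carry much *Lcn2* protein and RNA. In the WT *Lcn2*-high cells 9 of 10 neutrophil markers were at 0 UMIs, *S100a8*, *Retnlg*, *Csf3r* and *Ngp* among them, and the list summed to 5.26 CPM against 24.6 CPM in *Lcn2*-low cells. In KO 6 of 10 were at 0, and the sums were 9.59 and 7.98 CPM. Of the 3 that passed the minimum of 20 UMIs in KO, 1 was higher by a log2 ratio of 1 or more and 1 lower by as much. The shares of all KO genes were 2.49% and 6.99%. *Retnlg* had 19 UMIs in 9 of 241 KO *Lcn2*-high cells (7.6 CPM) and 64 UMIs in 51 of 5343 *Lcn2*-low cells. Outside the gate, 53 WT cells had *Lcn2* at 50 or more per 10000 with *Sftpc* under 5%, of which 38 held more than 5 *S100a8* UMIs. In KO 25 such cells were found, none with more than 5 *S100a8* UMIs. Lymphocyte markers were at 0 in 9 of 11 (WT) and 10 of 11 (KO), and *Krt5* and *Krt14* of basal cells were at 0 in both libraries. The lymphocyte list summed to 21.0 against 31.0 CPM in *Lcn2*-low cells in WT (log2 ratio -0.56, -2.48 to 0.86). In KO it summed to 37.6 CPM, all from *Cd79b*, against 22.6 CPM (0.73, 0.41 to 1.04). Macrophage markers summed to 24016 CPM in WT and 24421 CPM in KO, of which *Lyz2*, a lysozyme that AT2 cells also make, was 23890 and 24381 CPM.

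Ciliated-marker cells were taken to lack *Lcn2*, which was not tested, and served as a gauge of free RNA. Thinning to 1000 UMIs a cell left out 1 KO *Lcn2*-high cell and 8 WT and 19 KO ciliated-marker cells with fewer UMIs. All 26 WT and 240 KO *Lcn2*-high cells then kept an *Lcn2* UMI. These cells were selected on *Lcn2*, so this detection follows from the selection and supports nothing. Ciliated-marker cells had an *Lcn2* UMI in 0 of 36 cells in WT (up to 9.74% by the exact interval). In KO they had one in 10 of 439 cells (2.28%, 1.10 to 4.15). Without thinning the ciliated-marker shares were 2.27% and 8.73%, at median depths of 3878.5 and 6937 UMIs, against median depths of 7328 and 10061 UMIs in the *Lcn2*-high cells. The *Lcn2* level of the ciliated-marker cells was 5.53 CPM in WT and 56.7 CPM in KO. It was higher in cells with *Pecam1* and *Cldn5* UMIs, at 20.7 CPM in WT (7568 cells) and 89.7 CPM in KO (370 cells).

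Nuclear RNA separated the *Lcn2*-high barcodes into 2 sets of nearly equal size. Of *Sftpc*-high, *Lcn2*-high barcodes without *Ptprc* or *Pecam1*, 27 in WT (50.9%, 36.8 to 64.9) and 262 in KO (52.1%, 47.6 to 56.5) were under the *Malat1* limit and were left out. Among barcodes with lower *Lcn2* the shares under the limit were 26.1% (22.5 to 30.0) in WT and 17.2% (16.3 to 18.2) in KO. The barcodes under the limit had fewer UMIs, with medians of 2037 (WT) and 3767.5 (KO), and fewer genes, with medians of 703 and 916.5 against 2427 and 2823 in the *Lcn2*-high cells. At 1000 UMIs a cell the gene numbers were still 442 and 385 against 548.5 and 522.5. They were thus lower at equal depth too.

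Other nuclear RNAs went with *Malat1* across these 2 sets. The median log2 ratio of all genes over the barcodes under the limit was 0.26 in WT and 0.65 in KO. *Neat1*, the RNA scaffold of paraspeckles, was at 1116 CPM in WT *Lcn2*-high cells against 332 CPM in barcodes under the limit, and at 639 against 184 CPM in KO. *Kcnq1ot1*, an imprinted antisense RNA of the nucleus, was at 33.6 against 7.65 CPM in KO (log2 ratio 2.13, 1.18 to 3.25). Of messages that were higher along with *Lcn2*, *Lrg1* was at 1184 against 808 CPM in WT and 1237 against 1041 CPM in KO (0.55 and 0.25). *Chil1* was at 3931 against 4174 CPM in WT and at 4174 against 3838 CPM in KO (-0.09 and 0.12), and *Lcn2* was at 8338 CPM (WT) and 9686 CPM (KO) in the barcodes under the limit. In KO the ratios of *Lrg1* and *Chil1* thus lay below that of the median gene. Other such messages were uneven across the sets. *Slc26a4*, which encodes the anion exchanger pendrin, had log2 ratios of 2.88 in WT (0.91 to 5.99) and 1.21 in KO over the barcodes under the limit. The metallothionein *Mt2* had 2.39 in WT (0.93 to 4.32) and -0.24 in KO, *Malt1*, the paracaspase of the NF-kB pathway, 0.40 and 1.49, and *Slpi*, a secreted protease inhibitor, -0.36 and -0.42. Near the *Malat1* limit, the lowest cell inside had 33.6 per 10000 and the highest outside 29.6 in WT, and in KO these values were 30.1 and 30.0, with 23 cells between 30 and 40 and 38 between 20 and 30.

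Genes higher in the *Lcn2*-high cells of both libraries formed a short list. Of 8402 genes with at least 20 UMIs in each library, 18 had a log2 ratio of 1 or more over *Lcn2*-low cells in both (0.214% of genes), and 37 had one of -1 or less in both (0.44%). In WT alone the counts were 321 higher (3.82% of 8408 genes) and 1118 lower (13.3%), and in KO 348 higher (2.49% of 13948) and 975 lower (6.99%). The WT counts rest on 190036 UMIs from 26 cells and the KO counts on 2501496 UMIs from 241 cells. The median log2 ratio of all genes was -0.13 in WT and -0.10 in KO, and ratios below are to be read beside it.

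*Lrg1* (chr17:56119678-56122001, minus strand) had the highest ratio shared by both libraries, ranked by the smaller of the 2, among genes with at least 50 UMIs in each library and apart from *Lcn2* itself. Under that limit *Ly6i*, of the Ly6 family of surface proteins, had higher ratios of 2.61 in WT, from 14 and 26 UMIs, and 3.34 in KO. *Lrg1* stood at 1184 CPM in WT *Lcn2*-high cells against 313 CPM in *Lcn2*-low cells, and at 1237 against 296 CPM in KO. The log2 ratios were 1.92 (1.69 to 2.14) and 2.06 (2.00 to 2.12). Per cell, the median *Lrg1* level was 8.85 per 10000 UMIs in WT and 8.95 in KO, and 0 in the *Lcn2*-low cells of each. At 1000 UMIs per cell, *Lrg1* was detected in 53.8% (WT) and 57.5% (KO) of *Lcn2*-high cells, 18.1% and 18.4% of *Lcn2*-low cells and 2.78% and 1.14% of ciliated-marker cells. In cells with *Pecam1* and *Cldn5* UMIs the shares were 13.9% (WT) and 11.3% (KO), so *Lrg1* was not confined to AT2 cells. The distributions overlapped, since single *Lcn2*-low cells reached 59.2 (WT) and 66.5 (KO) per 10000.

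*Slpi*, a secreted inhibitor of leukocyte proteases, was at 379 against 109 CPM in WT and 287 against 89.9 CPM in KO (log2 ratios 1.80 and 1.68). *Chil1* (chr1:134182176-134190181, plus strand) was the most abundant of the 12, at 3931 against 1670 CPM in WT and 4174 against 1736 CPM in KO (1.23 and 1.27). At 1000 UMIs per cell it was detected in 25 of 26 WT and 228 of 240 KO *Lcn2*-high cells, 69.0% and 73.7% of *Lcn2*-low cells and 0% (0 of 36) and 2.51% of ciliated-marker cells. *Slc26a4* was at 163 against 52.4 CPM in WT and 149 against 35.2 CPM in KO (1.64 and 2.08). It was a gene of few cells, with 0 UMIs in 16 of 26 WT and 135 of 241 KO *Lcn2*-high cells.

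*C3*, the central complement component, and *Itih4*, an acute phase protease inhibitor family member, followed. *C3* was at 337 against 129 CPM in WT and 265 against 129 CPM in KO (1.38 and 1.03), and *Itih4* at 316 against 126 and 272 against 128 CPM (1.32 and 1.08). *Malt1* had ratios of 1.20 and 1.40, and *Ptgs1*, the cyclooxygenase COX-1, had 1.01 and 1.01. Alternatives with a value numbered 15 for *Itih4* in WT and 17 for the others. Over these, each of the 4 genes stayed above 0 in both libraries but fell below 1 under some. The lowest ratios were 0.83 (WT) and 0.86 (KO) for *C3*, 0.33 and 0.78 for *Itih4* and 0.64 and 0.73 for *Ptgs1*. For *Malt1* the lowest was 0.98 in WT, and it kept 1.05 or more in KO.

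*Alkal1*, a ligand of the receptors ALK and LTK, *Mt2* and *Dmkn*, an epithelial secreted protein, were also among the 12 genes, and their ratios differed more between the libraries. *Alkal1* had 2.00 in WT (0.96 to 2.94) and 0.95 in KO (0.59 to 1.30). *Mt2* had 1.79 (1.27 to 2.29) and 0.93 (0.72 to 1.13), and 15 of its 44 WT UMIs came from 1 cell. Its ratio turned to -0.97 in WT after thinning to 1000 UMIs per cell and to -1.57 in Y-positive KO cells. *Dmkn* had 0.94 (-0.13 to 1.88) and 2.78 (2.61 to 2.95). Whether these ratios differed between libraries was not tested.

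**Figure D2:**
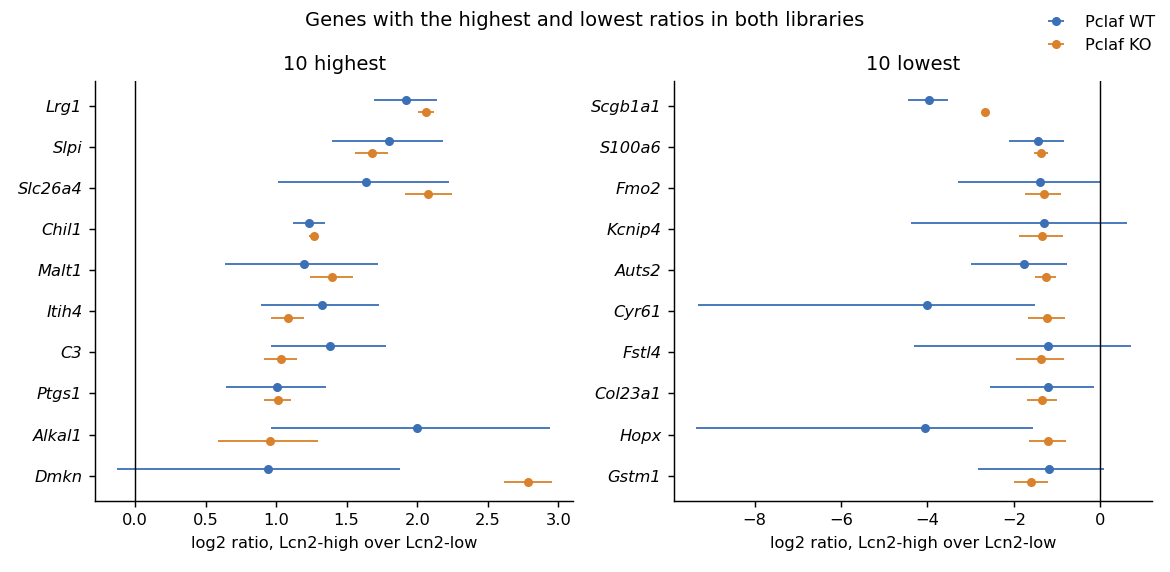
Log2 ratio of summed CPM, *Lcn2*-high over *Lcn2*-low cells (x axis), in WT and KO for the 10 highest and 10 lowest genes by the ratio shared by both libraries (y axis), of genes with at least 50 UMIs in each; bars are exact 95% intervals of counting error. *Lrg1*, at 1.92 in WT and 2.06 in KO, leads the higher genes, and intervals are wide in WT, where *Cyr61* and *Hopx* rest on 1 UMI each in the *Lcn2*-high cells.

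The 12 lowest genes were led by *Scgb1a1*, the secretoglobin of club cells. It was at 216 CPM in WT *Lcn2*-high cells against 3365 CPM in *Lcn2*-low cells, and at 970 against 6187 CPM in KO (log2 ratios -3.96 and -2.67). Most of this difference lay in a few *Lcn2*-low cells: 3 WT cells with at least 500 *Scgb1a1* UMIs held 90.8% of the *Lcn2*-low UMIs, and 59 KO cells held 77.7%. No *Lcn2*-high cell had that many. The club list of 7 markers summed to 2742 against 5750 CPM in WT and 2839 against 8946 CPM in KO. Ciliated markers were lower too, at 42.1 against 111 CPM in WT, where 5 of 8 were at 0 with *Foxj1* among them, and 113 against 166 CPM in KO. The part of such cells, or of doublets, in the ratios of other genes was tried only by leaving out doublet calls.

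*S100a6*, a calcium-binding protein, was at 121 against 329 CPM in WT and 126 against 325 CPM in KO (-1.44 and -1.36), and *Gstm1*, a glutathione transferase, had -1.18 in WT (-2.83 to 0.08, from 5 UMIs) and -1.60 in KO. *Auts2*, a regulator of transcription, had -1.78 (-3.00 to -0.78) and -1.26 (-1.51 to -1.03). *Fmo2*, a flavin monooxygenase of lung, had -1.40 and -1.31, and *Col23a1*, a transmembrane collagen, -1.22 and -1.34. *Hopx*, a homeodomain protein of AT1 cells, and *Cyr61*, a matricellular YAP target, were at 1 UMI each in WT *Lcn2*-high cells. Their ratios were -4.05 (-9.36 to -1.55) and -4.00 (-9.31 to -1.51) in WT, and -1.22 and -1.24 in KO. *Hykk* had 1 WT UMI (-2.17, -7.50 to 0.38), and *Kcnip4*, *Fstl4* and *Pitpnc1* had 2 each, so the intervals of all 4, like that of *Gstm1*, included 0 in WT.

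The acute phase list held 25 genes, of which 10 passed the minimum of 20 UMIs in WT and 14 in KO. In WT 6 were at a log2 ratio of 1 or more and 1 at -1 or less, beside 3.82% and 13.3% of all genes. In KO 8 were higher and 0 lower, beside 2.49% and 6.99%. The medians were 1.22 in WT and 1.06 in KO against -0.13 and -0.10 for all genes. Within *Xist*-positive cells they were 0.67 in WT and 0.92 in KO, and within Y-positive cells 0.48 and 1.24. At an *Lcn2* limit of 100, which leaves 1 WT cell, they were -0.78 and 1.15. Since genes were listed with earlier results of these cells known, and *Lcn2* itself is a gene of the same response, the list is a description. *Lrg1*, *C3* and *Itih4* were higher in both libraries. *Orm1*, an acid glycoprotein of plasma, was under the minimum in WT, with 3.70 from 8 against 7 UMIs, and had 3.21 in KO. *Hp*, the hemoglobin-binding haptoglobin, was the most abundant after *Lrg1* in *Lcn2*-high cells and was less shifted, with 0.79 and 0.64. In *Lcn2*-low cells it was the most abundant of the list, at 418 CPM (WT) and 540 CPM (KO).

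Several acute phase genes were carried by few cells. *Saa3*, a serum amyloid A gene expressed outside the liver, had 0 UMIs in WT *Lcn2*-high cells and 140 in KO, where the log2 ratio was 3.99. These came from 12 of the 241 cells, and the highest 3 held 60, 32 and 13 UMIs. *Saa1* and *Saa2*, close relatives whose reads can be split, had 0 UMIs in the *Lcn2*-high cells of both libraries. *Steap4*, a metalloreductase, had 2 UMIs in WT *Lcn2*-high cells, under the minimum, and a ratio of 2.07 in KO. *Cd14*, the co-receptor for bacterial lipopolysaccharide, had 0.49 in WT and 1.87 in KO, and *Lbp*, which hands lipopolysaccharide to it, had 1.12 and 0.87. *Serpina3n* had -1.14 (1 UMI) and 0.09.

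Genes used to mark activated AT2 cells followed the same direction. Of 9 listed, 3 of the 7 that passed in WT and 6 of 9 in KO were higher by 1 or more, with medians of 0.55 and 1.27, and none was at -1 or less. Of all genes, 3.82% (WT) and 2.49% (KO) were higher. *Il33*, an alarmin cytokine, had 0.55 and 0.88, and *Fabp5*, a fatty acid binding protein, 0.55 and 0.49. *Lyz1* was uneven: its ratio was 0.10 in WT, where 3 cells held 116, 61 and 40 of its 219 UMIs, and 1.19 in KO.

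Secreted host defence genes had medians of 0.29 (8 genes, 2 higher) in WT and 0.51 (12 genes, 3 higher and 3 lower) in KO, beside 3.82% of all genes higher in WT and 2.49% higher and 6.99% lower in KO. *Pigr*, the receptor that carries antibodies across epithelia, had 2.26 and 1.15, from 8 and 48 UMIs in the *Lcn2*-high cells. *Sftpd*, the collectin surfactant protein D, had 0.56 and 0.72. In KO the lower ones were *Ltf*, *Bpifa1* and *Reg3g*, which airway secretory cells are known to make. Iron handling genes, listed because LCN2 acts on iron, had medians of 0.17 in WT (11 genes) and 0.09 in KO (18 genes). *Lrp2*, the endocytic receptor megalin that takes up LCN2, had 0.58 and 0.66 (553 and 583 CPM), and the ferritin heavy chain *Fth1* had 0.24 and 0.53.

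Receptors and signaling genes upstream of acute phase transcription had medians near those of all genes. The list of IL-6, IL-1 and IL-17 receptors with STAT3 response genes had medians of -0.01 (17 genes, 1 higher and 2 lower) in WT and -0.15 (19 genes, 0 and 0) in KO. Of all WT genes 3.82% were higher and 13.3% lower, so these WT counts are close to the background. *Stat3* was at -0.08 and -0.15, *Socs3*, its feedback inhibitor, at 0.10 and -0.10, and *Osmr*, the oncostatin M receptor, at 0.10 and 0.38. The NF-kB list had -0.08 in WT (17 genes, 2 higher and 2 lower) and 0.03 in KO (24 genes, 5 higher and 0 lower), beside the same WT shares and 2.49% of all KO genes higher and 6.99% lower. Its summed level had a log2 ratio of -0.05 in WT (-0.27 to 0.16) and 0.29 in KO (0.23 to 0.35), so it was higher in KO only. *Nfkbia* and *Icam1*, usual targets, were at -0.06 and 0.01 in WT and -0.13 and 0.26 in KO. *Csf2*, the macrophage growth factor GM-CSF, had 2.06 from 7 UMIs in WT and 1.30 in KO. The neutrophil chemokine *Cxcl1* had 1 UMI in WT, under the minimum, and a ratio of 2.33 in KO, and the mitochondrial superoxide dismutase *Sod2* had 0.56 and 1.16.

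**Figure D3:**
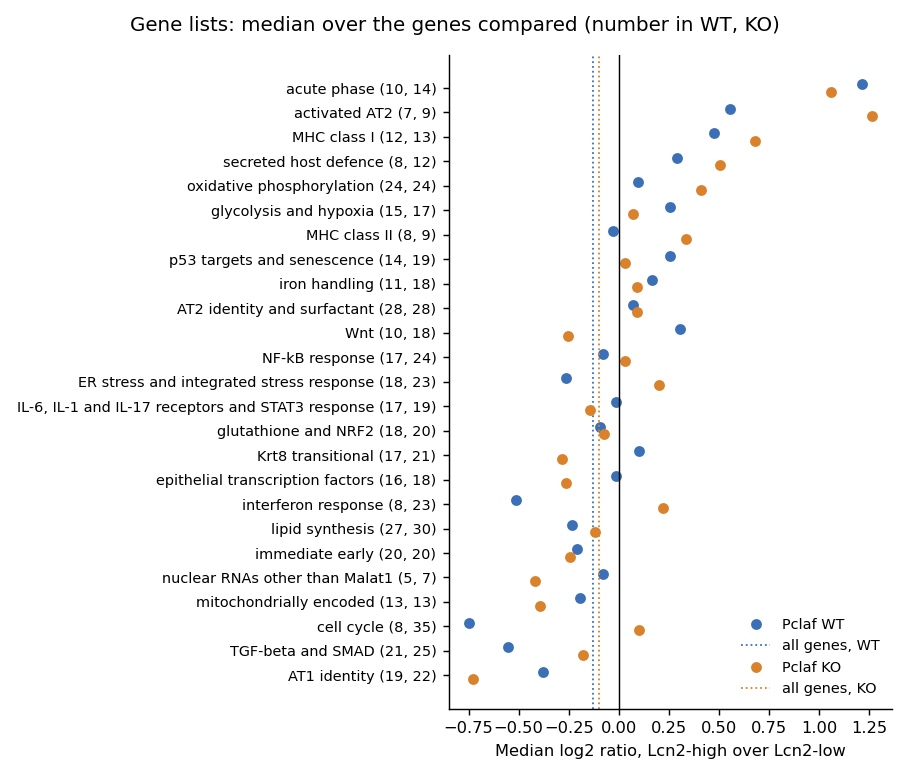
Median log2 ratio, *Lcn2*-high over *Lcn2*-low cells (x axis), for 25 gene lists in WT and KO, with the number of genes that passed the minimum in each library in brackets; dotted lines are the medians of all genes, -0.13 in WT and -0.10 in KO. The acute phase list (1.22 and 1.06) and the activated AT2 list (0.55 and 1.27) lie farthest to the right, and the AT1 list (-0.38 and -0.73) lies to the left in both.

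Surfactant and AT2 identity genes had medians a little above those of all genes. All 28 listed genes passed the minimum in both libraries, with medians of 0.07 in WT and 0.09 in KO, and none was at 1 or more, beside 3.82% and 2.49% of all genes. In WT 1 was at -1 or less, *Chia1*, an acidic chitinase (-1.09 in WT and -0.76 in KO), and in KO 0 were, beside 13.3% and 6.99%. The summed level of the list was higher by 0.30 on the log2 scale in WT (0.28 to 0.32) and 0.29 in KO (0.28 to 0.30). *Sftpb*, which spreads surfactant at the air interface, had a median of 71.4 per 10000 UMIs per WT *Lcn2*-high cell and 67.9 per *Lcn2*-low cell, and 65.9 against 66.0 in KO. *Scd1*, a fatty acid desaturase, had 0.84 and 0.58, and *Elovl1*, an elongase of fatty acids, 0.91 and 0.63. The wider lipid synthesis list had -0.23 and -0.12. *Etv5*, a transcription factor that maintains AT2 cells, had -0.29 and -0.53.

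AT1 genes had medians of -0.38 in WT and -0.73 in KO, below those of all genes. Of 22 listed, 3 of 19 in WT and 6 of 22 in KO were at -1 or less and none at 1 or more. The WT count is close to the 13.3% of all WT genes at -1 or less, and the KO count stands beside 6.99%. *Hopx* and *Sec14l3* were at -1 or less in both libraries, *Sec14l3* with -1.13 and -1.23. *Timp3*, an inhibitor of matrix metalloproteinases, had -0.67 and -1.44, *Clic5*, a chloride intracellular channel, -0.72 and -1.45, and *Cyp2b10* -0.87 and -1.62. *Ager*, the most abundant AT1 gene, did not go with them and had -0.02 and 0.18. The sum over the list was 3189 against 3967 CPM in WT and 3117 against 3718 CPM in KO.

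Genes of the *Krt8* transitional state, which lies between AT2 and AT1 cells, were not higher as a list, with medians of 0.10 in WT and -0.28 in KO and 0 of the genes that passed at 1 or more in either library, beside 3.82% and 2.49% of all genes. *Krt8* had 0.10 and -0.01 and *Cldn4* rested on 5 (WT) and 7 (KO) UMIs. In WT 1 cell decided these values, the only one with *Lcn2* at 100 or more per 10000. It held 36 of the 55 *Krt8* UMIs, all 5 of *Cldn4* and 210 of the 525 UMIs of the list. Without it, an alternative chosen after seeing the data, the WT median was -0.81, 0 of 17 genes were at 1 or more and 6 at -1 or less, beside 4.1% and 13% of all genes without that cell, *Krt8* had -1.34 (-2.09 to -0.69) and the sum was 1765 against 2605 CPM, lower as in KO. *Clu*, the chaperone clusterin, had 0.84 in WT, 0.44 without that cell, and 0.75 in KO, and the cell cycle inhibitor *Cdkn1a* 0.41 and 0.36. TGF-beta and SMAD genes had -0.55 and -0.18, and p53 and senescence genes 0.25 and 0.03.

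MHC class I genes had medians of 0.48 in WT and 0.68 in KO, with 0 of 12 genes at 1 or more in WT and 1 of 13 in KO, beside 3.82% and 2.49% of all genes. *H2-K1* had 0.61 and 0.67, *H2-D1* 0.53 and 0.83, and *H2-Q7* 0.88 and 1.16, although reads of the H2 genes can be shared among near-identical copies. Class II genes had -0.03 and 0.34. Interferon response genes had -0.52 in WT, where 8 passed and 2 were lower, beside 13.3% of all genes. In KO the median was 0.22, and of 23 that passed 6 were higher and 2 lower, beside 2.49% and 6.99%. *Isg15*, a ubiquitin-like modifier, had 0 UMIs in WT *Lcn2*-high cells and 1.54 in KO, and *Ifi27l2a* had -1.73 (5 UMIs) and 1.54. The difference between libraries was not tested.

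Levels were also summed over bins of *Lcn2*. Genes named for being higher in *Lcn2*-high cells were chosen to differ across these bins, so the values describe only the shape of the rise. In KO cells with under 5, 5 to 10, 10 to 25, 25 to 50, 50 to 75, 75 to 100 and over 100 *Lcn2* UMIs per 10000, *Lrg1* was at 75.5, 200, 447, 803, 1245, 1226 and 1213 CPM. In KO it was thus level from the limit of 50 on. *Chil1* went on over the same bins, from 1128 to 4871 CPM, and *Slpi* from 47.3 to 447 CPM. *Slc34a2* was at 3961 CPM in the lowest bin, 4785 CPM at 50 to 75 and 4124 CPM at 100 or more, so its highest level was in the middle. In WT *Lrg1* was higher in each bin up to that of 75 to 100, from 60.7 to 1576 CPM with 1072 CPM at 50 to 75, and the single WT cell above 100 had 172 CPM. Depth went along with *Lcn2*: the median was 6535 UMIs in the lowest KO bin and 10755 in the highest, and the part of depth was not tested beyond thinning.

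**Figure D4:**
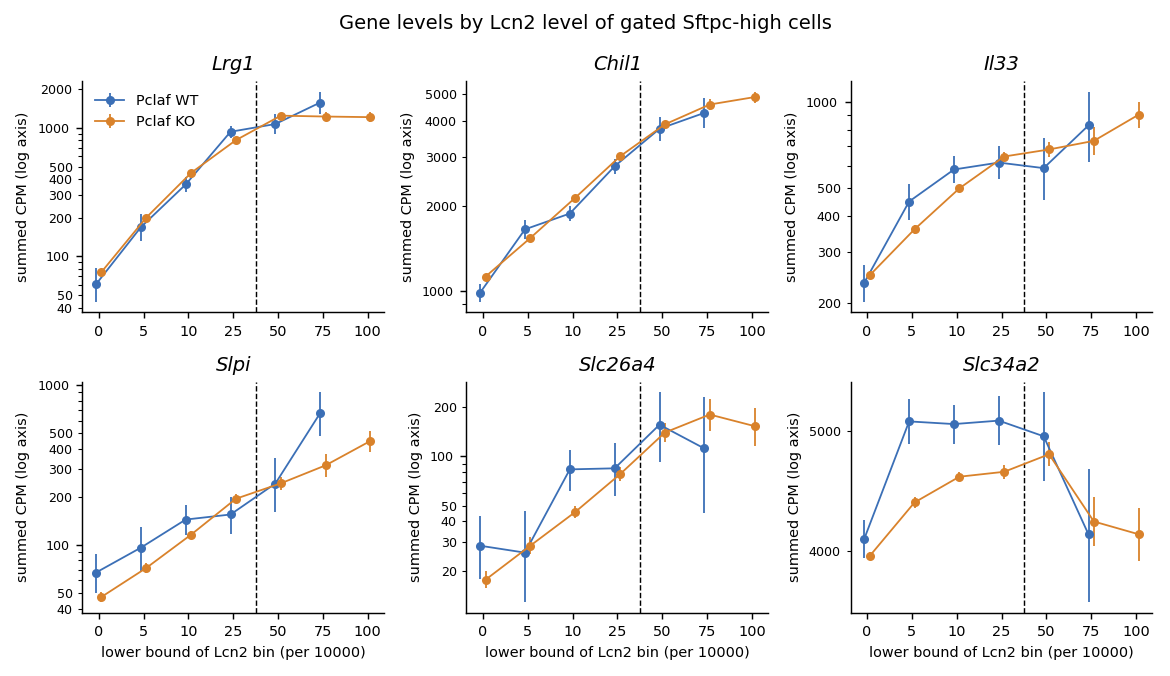
Summed CPM (y axis, log scale) of 6 genes by *Lcn2* level of the AT2 cells (x axis, lower bound of the bin in UMIs per 10000), WT and KO, with exact 95% counting intervals; the dashed line marks the limit of 50 and the WT bin of 1 cell is not drawn. *Lrg1*, *Chil1*, *Slpi*, *Slc26a4* and *Il33* are higher toward high *Lcn2*, and *Slc34a2* is highest in the middle bins.

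Cells with *Xist*, the RNA of the inactive X chromosome, and cells with Y-linked RNA (*Ddx3y*, *Eif2s3y*, *Kdm5d* or *Uty*) were both present in each library, so neither library looked like cells of male mice alone. *Xist* and Y-linked UMIs met in 11 WT and 229 KO AT2 cells, and the part of doublets or free RNA in these was not tested. In WT, high *Lcn2* was found in 3 of 143 *Xist*-positive AT2 cells (2.10%, 0.435 to 6.01) and in 15 of 169 Y-positive AT2 cells (8.88%, 5.05 to 14.2). In KO it was found in 219 of 3288 *Xist*-positive cells (6.66%, 5.83 to 7.57) and in 10 of 1364 Y-positive cells (0.733%, 0.352 to 1.34). The order was opposite in the 2 libraries. *Xist*-positive cells were 11.5% of *Lcn2*-high cells in WT and 90.9% in KO, against 35.1% and 57.4% of *Lcn2*-low cells. The median *Lcn2* level of the AT2 cells was 6.87 (*Xist*-positive) and 9.46 (Y-positive) per 10000 in WT and 10.4 and 3.77 in KO. *Pclaf* differed between these cells in KO: in cycling cells it was at 146 CPM (130 to 164) in the *Xist*-positive and 34.2 CPM (13.7 to 70.4, 17 cells) in the Y-positive, and in AT2 cells at 5.92 and 0.81 CPM. In WT cycling cells the levels were 483 and 466 CPM, and in WT AT2 cells 20.8 CPM (17 UMIs) and 2.06 CPM (2 UMIs). The order in AT2 cells was thus the same in both libraries. Whether all cells of the library labelled KO lack *Pclaf* was not tested, and most KO *Lcn2*-high cells are of the *Xist*-positive kind. Sex and animal cannot be told apart here, and neither can animal and genotype.

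**Figure D5:**
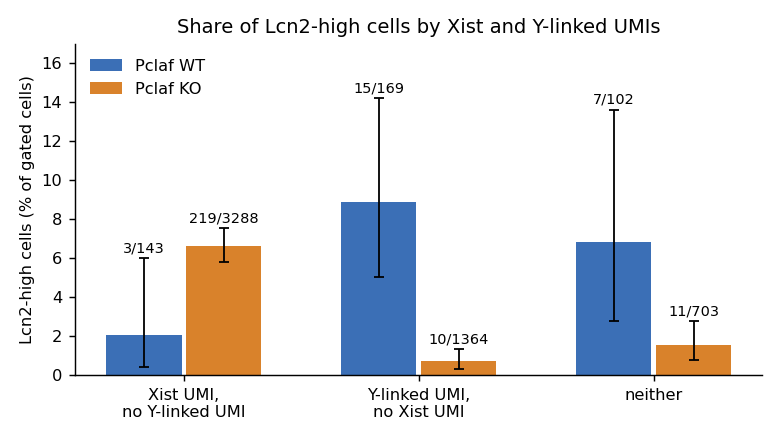
*Lcn2*-high cells as a percentage of AT2 cells that met the other limits (y axis) in cells with an *Xist* UMI only, a Y-linked UMI only or neither, WT and KO; numbers above bars are cells, and error bars are exact 95% binomial intervals. In WT the share is 2.10% for *Xist*-positive and 8.88% for Y-positive cells, and in KO it is 6.66% and 0.733%.

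The ratios of the leading genes were therefore taken within *Xist*-positive and Y-positive cells as well, an alternative chosen after seeing the data. *Lrg1* had 2.30 in *Xist*-positive and 1.25 in Y-positive WT cells, and 1.66 and 3.28 in KO. *Chil1* had 1.45 and 0.93 in WT and 1.21 and 1.40 in KO, *Slpi* 1.96 and 1.19 in WT and 1.46 and 2.32 in KO, and *Slc26a4* 2.80 and 1.16 in WT and 1.73 and 2.64 in KO. The medians of all genes were 0.18 (*Xist*-positive) and -0.10 (Y-positive) in WT and -0.10 and 0.16 in KO. All 4 genes were higher in *Lcn2*-high cells in each of the 4 strata, the smallest of which held 3 *Lcn2*-high cells. They were chosen as high in these same cells, and 219 of the 241 KO *Lcn2*-high cells were *Xist*-positive, so this is a description and no support. *Mt2*, another of the 12 highest genes, had -1.57 in Y-positive KO cells. Of the 18 genes higher in both libraries, 5 were among the 6 found in *Xist*-positive cells and 5 among the 39 in Y-positive cells.

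Between genotypes, 810 of 8388 genes were higher by a log2 ratio of 1 or more in KO than WT *Lcn2*-high cells (9.66%), and 482 were lower by as much (5.75%), with a median of -0.02 over all genes. The balance turned under some settings. It was 237 higher to 1606 lower in *Xist*-positive cells, with 3 WT cells, 59 to 110 in Y-positive cells and 810 to 1176 with no minimum of UMIs. Median-of-ratios scaling gave 1056 to 304. Of the genes highest over *Lcn2*-low cells, *Lrg1* had a KO over WT ratio of 0.06 (-0.13 to 0.26) and *Chil1* 0.09 (-0.02 to 0.20). Others differed more: *Mt2* had -1.40 (-1.87 to -0.90), *Alkal1* -1.17 (-2.03 to -0.20), *Slpi* -0.40 (-0.75 to -0.03) and *Dmkn* 1.47 (0.62 to 2.49). *Slc34a2* had 0.05 (-0.05 to 0.15). *Clic4*, a chloride intracellular channel gene and the study's proposed target of the PCLAF-DREAM complex, was at 189 CPM (WT) and 91.9 CPM (KO) in *Lcn2*-high cells (log2 ratio -1.04), and at 199 and 132 CPM in *Lcn2*-low cells (-0.59). Within *Xist*-positive *Lcn2*-high cells the ratio was -1.34, with 3 WT cells, and within Y-positive ones -0.52, beside medians of all genes of -0.56 and -0.15 in these cells. The Y-positive ratio rests on 15 WT and 10 KO cells, and these ratios within strata are given without counting intervals. *Clic4* was thus lower in KO in each of these comparisons, but whether it exceeds counting error within the strata was not tested. The study reported reduced *Clic4* in other cells, namely proliferating progenitors, *Krt8*-positive cells and cells between AT2 and AT1, and stained lung for the protein. The values here are of RNA in *Lcn2*-high and *Lcn2*-low AT2 cells and do not test that report. Genotype and animal cannot be told apart.

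The 10 genes with the highest KO over WT ratios rested on 1 or 2 UMIs in the 26 WT cells. *Hbb-bs*, a hemoglobin chain with a near-identical copy, had 3.99, and 195 of its 209 KO UMIs came from 1 cell. *Slc8a1*, a sodium-calcium exchanger (2 WT UMIs), had 3.37 and was higher in KO *Lcn2*-low cells as well, at 2.89. *Smc3* and *Smc4*, subunits of cohesin and condensin, *Zkscan3*, *Cytip*, *Dhrs4*, *Spidr*, *Aox1* and *Med19* had 2.74 to 2.98 in *Lcn2*-high cells and -0.28 to 0.25 in *Lcn2*-low cells.

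Of the 10 lowest, *Eln*, the elastin gene, had -3.17, with 29 of its 30 WT UMIs from 1 cell. *Pmvk*, a kinase of the mevalonate pathway, was at 237 CPM (WT) and 78.8 CPM (KO), a ratio of -1.59, and was lower in KO *Lcn2*-low cells too (-1.03). *Hspa1a*, the inducible heat shock protein HSP70, had 400 CPM (WT) and 138 CPM (KO), a ratio of -1.54. *Hgsnat*, *9530077C05Rik*, *Rnf166*, *Mapkapk3*, *Mpdu1*, *Bckdk* and *Gm2000* had -1.80 to -1.55, from 10 to 15 UMIs each in WT.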

How the data were processed

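Both matrices were deposited as raw UMI counts per gene and barcode for 31053 genes, which the authors made with Cell Ranger and STAR on GRCm38/mm10; the submitters' notes name Cell Ranger 3.1.0, while the matrix headers name another version. Strand use and the treatment of near-identical genes in counting were not given in the sources used here. The limits on genes and mitochondrial UMIs are those of the study's methods. UMIs were summed over the *Lcn2*-high and the *Lcn2*-low cells of each library and given as counts per 1000000 UMIs (CPM). Log2 ratios were taken for genes with at least 20 UMIs over the 2 sums, a sum of 0 being set at a floor of 3 counts, and a gene was called higher or lower at a log2 ratio of 1 or -1. With 1 library per genotype no test was made. Ratios were tested on simulated data before use.

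The members and lists (25 gene lists and 13 marker lists) were chosen with earlier results of these data known. Named are *Pclaf*, *Clic4*, *Slc34a2*, *Lrg1* and the genes that chose the cells; the 12 genes with the highest smaller and the 12 with the lowest larger log2 ratio of the 2 libraries, and the 10 highest and 10 lowest KO over WT, all with at least 50 UMIs; and for each list the members with the most UMIs and the highest and lowest ratios. The result of 1 of the named genes is left out of this text. Other genes were named after their values were seen. Ciliated-marker cells had at least 1% of UMIs from the ciliated list. Scrublet in scanpy 1.11.5 called 2342 WT (7.76%) and 422 KO (2.70%) cells doublets, 0 of 26 and 6 of 241 of them among *Lcn2*-high cells; they were kept and left out in an alternative. Gene positions are from GENCODE vM21 and promoters from RefSeq. Python 3.11.15, numpy 2.4.6, scipy 1.17.1, pandas 2.3.3 and matplotlib 3.10.9 were used. The 14 alternatives set with the design changed the *Lcn2*, *Sftpc*, *Malat1* and mitochondrial limits, the doublets, depth, scaling and gene minimum, and 3 were chosen after seeing the data.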

Additional observations from a re-analysis of the deposited data

Results flagged for a closer look

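The share of AT2 cells with high *Lcn2* was 6.78 percentage points lower in *Xist*-positive than in Y-positive cells in WT (a difference of -6.78) and 5.93 points higher in KO (5.93), which are opposite directions; the difference between the libraries was not tested. *Hbb-bs* had a log2 ratio of -3.92 in WT, from 1 UMI in the *Lcn2*-high cells, and 3.61 in KO, where 195 of 209 UMIs came from 1 cell. In WT 123 of the 172 *Lcn2*-low UMIs also came from 1 cell. *Eln* had 1.83 in WT, where 29 of 30 UMIs came from 1 cell, and -1.19 in KO. These opposite directions were not tested either. A further 5 KO barcodes and 0 WT barcodes had 5000 or more genes but met all other limits for *Lcn2*-high cells; they held 22216 to 29305 UMIs, with *Lcn2* at 53.4 to 122 per 10000, and entered no comparison.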

How the results depend on the processing

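Of 122 recomputed summary values, 81 kept their direction and stayed near the reported value, 40 lay outside and 1 was reversed. Near means within 1.5 times a reported count or within the counting interval of the reported value, which is wide in WT. Some of the 81 could not change. Among these are the KO over WT counts when only the limits of *Lcn2*-low cells differed, and the KO share and KO acute phase median without 1 WT cell. Lowering the *Lcn2* limit to 25 gave shares of 20% (WT) and 13.8% (KO), 23 genes lower in both libraries and an acute phase median of 0.86 in KO. Raising it to 100 left 1 WT cell, with shares of 0.235% and 0.591%, 36 genes higher and 8 lower in both, 123 higher in KO than WT and an acute phase median of -0.78 in WT. With no *Malat1* limit the shares were 8.94% and 7.23%, 116 genes were lower in both and the KO acute phase median was 0.91. Under 10% mitochondrial UMIs the KO share was 5.03%. Thinned to 1000 UMIs, 17 genes were lower in both, 284 were higher and 162 lower in KO than WT, and the KO acute phase median was 1.19. *Lcn2*-low cells without the other limits gave 111 genes lower in both. Median-of-ratios scaling gave 1056 genes higher and 304 lower in KO than WT and moved the median KO over WT ratio of all genes to 0.12. With no minimum of UMIs 43 genes were higher in both and 1176 lower in KO than WT, and with at least 50 UMIs the counts were 8 higher and 20 lower in both, and 445 higher and 147 lower in KO. Of the 18 genes higher in both, 11 were shared with the 21 at a limit of 25, 15 with the 17 without doublets and 6 with the 12 after thinning.

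In *Xist*-positive cells alone, chosen after seeing the data, the shares were 2.10% and 6.66%, 6 genes were higher and 4 lower in both, 237 higher and 1606 lower in KO than WT, and the acute phase median was 0.67 in WT and 0.92 in KO. In Y-positive cells alone the shares were 8.88% and 0.733%, 39 genes were higher and 130 lower in both, 59 higher and 110 lower in KO than WT, and those medians were 0.48 in WT, against 1.22 over all cells, and 1.24 in KO. Without the single WT cell at 100 or more, also chosen after seeing the data, 16 genes were higher and 33 lower in both and the WT acute phase median was 1.31. Reversed among single genes were *Fstl4* in WT (0.40 at a limit of 25, 1.35 thinned and 1.5 in *Xist*-positive cells), *Hbb-bs* (-2.90) and *Smc3* (-0.093) in KO over WT at a limit of 25, *Lrg1* (-1.16) and *Kcnip4* (1.82) in WT and *Pitpnc1* in KO (0.31) at 100, *Mt2* in WT (-0.97) and *Med19* in KO over WT (-1.21) after thinning, *Pitpnc1* in WT (0.58) and *Aox1* in KO over WT (-0.020) in *Xist*-positive cells, and *Fmo2* in KO (1.51) in Y-positive cells. Of ratios reported short of 1, *Mt2* in KO was -1.57 in Y-positive cells, and *Slc34a2* ran from -2.19 to 0.12 in WT and from -0.099 to 0.15 in KO. The cause was not tested, other than that a limit of 100 leaves 1 WT cell. No paired analysis was possible because each genotype had 1 library. The 26 WT cells limit the precision of every WT ratio and of every KO over WT ratio.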

Other observations

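Mitochondrially encoded genes were lower in the *Lcn2*-high cells of both libraries, with 0 of 13 above 0 and medians of -0.20 in WT and -0.39 in KO, while nuclear genes of oxidative phosphorylation had 0.10 and 0.41 over 24 genes. The median share of mitochondrial UMIs was 4.99% in WT and 5.12% in KO *Lcn2*-high cells against 6.06% and 6.37% in *Lcn2*-low cells. Immediate early genes had medians of -0.21 and -0.24 over 20 genes. *Junb*, an AP-1 subunit, had -1.10 in WT and -0.21 in KO.

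Cell cycle genes had a median of -0.75 in WT, where 8 of 35 genes passed the minimum, and 0.10 in KO, where all 35 passed. The whole list had 17 UMIs in WT *Lcn2*-high cells. Endoplasmic reticulum and integrated stress genes had -0.26 and 0.20, glycolysis and hypoxia genes 0.26 and 0.07, glutathione and NRF2 genes -0.10 and -0.08, Wnt genes 0.30 and -0.25, epithelial transcription factors -0.02 and -0.26, and nuclear RNAs other than *Malat1* -0.08 and -0.42. Summed marker levels in *Lcn2*-high against *Lcn2*-low cells were 137 against 193 CPM (WT) and 33.2 against 27.8 CPM (KO) for endothelial cells, and 1089 against 1005 CPM and 1114 against 1015 CPM for fibroblasts and pericytes. For goblet cells they were 10.5 against 5.56 CPM and 27.6 against 82.7 CPM. The WT goblet values rest on 2 and 12 UMIs (log2 ratio 0.92, -2.28 to 3.09). For red blood cells they were 15.8 against 158 CPM and 163 against 14.2 CPM. Single cells carried much of the red blood cell sums. Of the *Hbb-bs* UMIs, 123 of 172 in WT *Lcn2*-low cells and 195 of 209 in KO *Lcn2*-high cells came from 1 cell each. Mesothelial markers were at 5.26 against 2.78 CPM in WT, from 1 and 6 UMIs (log2 ratio 0.92, -4.60 to 3.96), and at 3.6 against 9.02 CPM in KO. For the WT goblet and mesothelial sums no direction can be read.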
